A study of Mus musculus with 24 samples.

Results

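The cells described here were NK1.1+CD3e+ liver cells of the mouse that carried transcripts of both Cd8a and Ly49 receptors. They were chosen by transcript counts from the same matrix in which all other genes were measured. A cell needed at least 10000 unique molecular identifiers (UMIs, tags that count single RNA molecules), a Cd8a value of at least 0.5 and a summed value of Klra1, Klra5, Klra7 and Klra9 of at least 0.5, where a value is UMIs per 10000 UMIs of that cell. Of 1382 cells of that depth, among 1735 in the matrix, 216 passed and are called Cd8a+Ly49+ cells. The other 1166 cells comprised 38 with Cd8a only, 468 with Ly49 only and 660 with neither at the threshold. The levels of these 5 genes are given as a description and were not tested, since they set the choice.

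Cells came from perfused livers of C57BL/6 mice, 8 to 10 weeks old, of the WT, Jα18-deficient and CD1d-deficient genotype, none of them treated. Jα18-deficient mice lack the gene segment that type I NKT cells need for their receptor. CD1d-deficient mice were made to lack CD1d, on which NKT cells of either type depend for lipid antigens. By the paper's account the related CD1d2 was not deleted in that strain, which might alter its CD1d-independent NKT cells. Cells were sorted for NK1.1 and CD3e and picked by hand, so that the sort set the presence of T cell and NK1.1 markers. The labels list 24 libraries, 8 per genotype, but cells are named only by genotype and number. Each genotype was therefore 1 pool, and genotypes were set side by side without a test. In the differences between subsets of cells, n is 3 pools of different genotypes, so that the spread between pools also holds any difference between genotypes.

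Ly49 receptors are C-type lectins on natural killer (NK) cells and some T cells. Most of them bind class I molecules of the major histocompatibility complex and inhibit the cell through motifs in their cytoplasmic tail, while a few activate it through the adaptor DAP12. CD8 occurs on T cells as a pair of CD8α and CD8β, which acts as coreceptor of the T cell receptor, or as a pair of CD8α chains without CD8β, as on many intraepithelial and innate-like T cells.

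The 4 receptor genes of the sum lie together in the NK gene complex on the minus strand of chromosome 6 (NCBIM37, the assembly also named mm9), and Cd8a lies elsewhere on that chromosome, at chr6:71323421-71329165. They are near copies of each other. The first 60 coding bases from the annotated transcripts are shown because the counts of single receptors rest on telling these genes apart. Capitals mark bases that differ from Klra1.
Klra1: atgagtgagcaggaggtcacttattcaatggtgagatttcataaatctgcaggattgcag
Klra5: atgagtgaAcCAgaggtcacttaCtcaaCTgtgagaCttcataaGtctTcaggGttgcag
Klra7: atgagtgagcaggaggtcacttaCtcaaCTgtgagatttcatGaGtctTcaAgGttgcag
Klra9: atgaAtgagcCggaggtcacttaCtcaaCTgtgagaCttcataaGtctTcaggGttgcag
Over these bases Klra5 differed from Klra1 at 10 positions, Klra7 at 8 and Klra9 at 9. Over all annotated transcripts of these genes, no window of 150 bases, the read length, of Klra1, Klra5 or Klra7 recurred in another Ly49 gene. Klra9 shared 533 of its 1853 windows (28.8%) with Klra3, so that reads from these stretches cannot be told apart and the counts of both genes are uncertain. The gene model of Klra9, from 130128771 to 130285823, spans that of Klra7, from 130168623 to 130183340, and the annotation the authors counted with is not given in the sources used here. Klra1 lies from 130313936 to 130336892 and Klra5 from 129849014 to 129867668.

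Cd8a+Ly49+ cells made up 30 of 523 WT cells, or 5.74% (exact Clopper-Pearson 95% interval 3.90 to 8.09%). In the Jα18-deficient pool they were 101 of 632, or 16.0% (13.2 to 19.1%). In the CD1d-deficient pool they were 85 of 227, or 37.4% (31.1 to 44.1%). The 3 intervals did not overlap, but they cover counting error only, and neither mice nor libraries could be compared. In numbers of sorted cells, a larger share can come from more of these cells or from fewer of the others. With every cell thinned to 10000 UMIs, the shares were 5.93%, 16.8% and 39.7%.

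**Figure D1:**
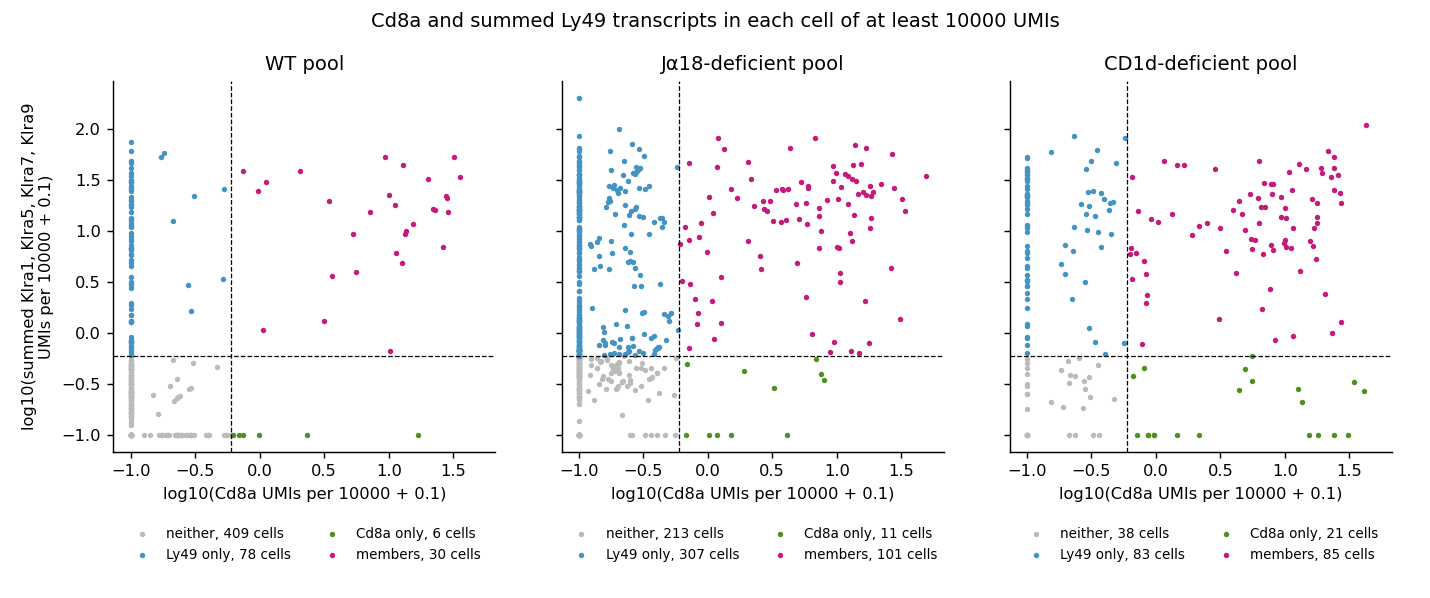
Each point is a cell of at least 10000 UMIs, with log10 of its Cd8a value plus 0.1 on the x axis and log10 of its summed Ly49 value plus 0.1 on the y axis, in 1 panel per pool; dashed lines mark the threshold of 0.5 per 10000 and colours the 4 subsets. The upper right quadrant holds 30 WT, 101 Jα18-deficient and 85 CD1d-deficient cells, and the lower right quadrant 6, 11 and 21.

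Cells with Cd8a were mostly cells with Ly49. Among Cd8a+ cells, 30 of 36 in the WT pool passed the Ly49 threshold (83.3%, 67.2 to 93.6%), as did 101 of 112 in the Jα18-deficient (90.2%, 83.1 to 94.99%) and 85 of 106 in the CD1d-deficient pool (80.2%, 71.3 to 87.3%). Among cells below the Cd8a threshold, the Ly49+ share was 16.0%, 59.0% and 68.6% in the same order. The Cd8a share of Ly49+ cells was 27.8%, 24.8% and 50.6%.

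Both gate values spread widely within the cells chosen. Cd8a, the CD8α chain, ran from 0.639 over a median of 11.2 to 35.5 UMIs per 10000 in WT cells, from 0.504 over 5.94 to 49.2 in Jα18-deficient cells and from 0.528 over 7.65 to 42.3 in CD1d-deficient cells. The Ly49 sum had medians of 16.2, 16.3 and 12.2, with highest cells at 53.1, 82.6 and 109. At the edge of the gate, the lowest Cd8a values inside were 0.504 and 0.526 and the highest outside 0.485 and 0.481, and for the Ly49 sum they were 0.534 and 0.550 against 0.493 and 0.461. A Cd8a value under 1 was found in 31 of the 216 cells and a Ly49 sum under 1 in 14, and 20 cells passed on a single Cd8a UMI. In the plot of Cd8a against the Ly49 sum, cells therefore reach down to both lines, and with a threshold of 1 the shares were 4.97%, 12.5% and 30.4%.

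Each single receptor reached the threshold in some of the cells only. A single UMI was found for Klra1 in 31 cells, for Klra5 in 27, for Klra7 in 24 and for Klra9 in 19. How far low counts and the threshold shaped this pattern was not tested. Klra9 reached 0.5 per 10000 in 136 of the 216 cells (63.0%, 56.2 to 69.4%), Klra7 in 117 (54.2%), Klra5 in 97 (44.9%) and Klra1 in 69 (31.9%). In 75 cells 1 of the 4 receptors reached it, in 74 cells 2, in 48 cells 3 and in 13 cells all 4, while in 6 Jα18-deficient cells none did and only the sum passed. Klra7 and Klra9 were both at the threshold in 69 cells, the Klra5 and Klra9 pair in 58, and Klra1 with Klra5 in 29.

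Receptor shares are given per pool as a description. Klra5 was at the threshold in 30.0% (14.7 to 49.4%), 40.6% (30.9 to 50.8%) and 55.3% (44.1 to 66.1%) of WT, Jα18-deficient and CD1d-deficient cells. Klra9 was at the threshold in 73.3% (54.1 to 87.7%), 69.3% (59.3 to 78.1%) and 51.8% (40.7 to 62.7%). These intervals overlap between neighbouring pools. Klra5 was the only receptor of the sum at the threshold in 15 of 85 CD1d-deficient cells (17.6%, 10.2 to 27.4%). The same held for 1 of 101 Jα18-deficient cells (0.990%, 0.0251 to 5.39%) and 0 of 30 WT cells, an interval up to 11.6%. Such cells can still hold UMIs of the other receptors below the threshold. How far such low counts shaped these shares was not tested. Among Ly49+ cells without Cd8a, Klra9 was at the threshold in 35.9%, 32.6% and 36.1% of cells, and Klra5 in 23.1%, 13.0% and 43.4%.

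**Figure D2:**
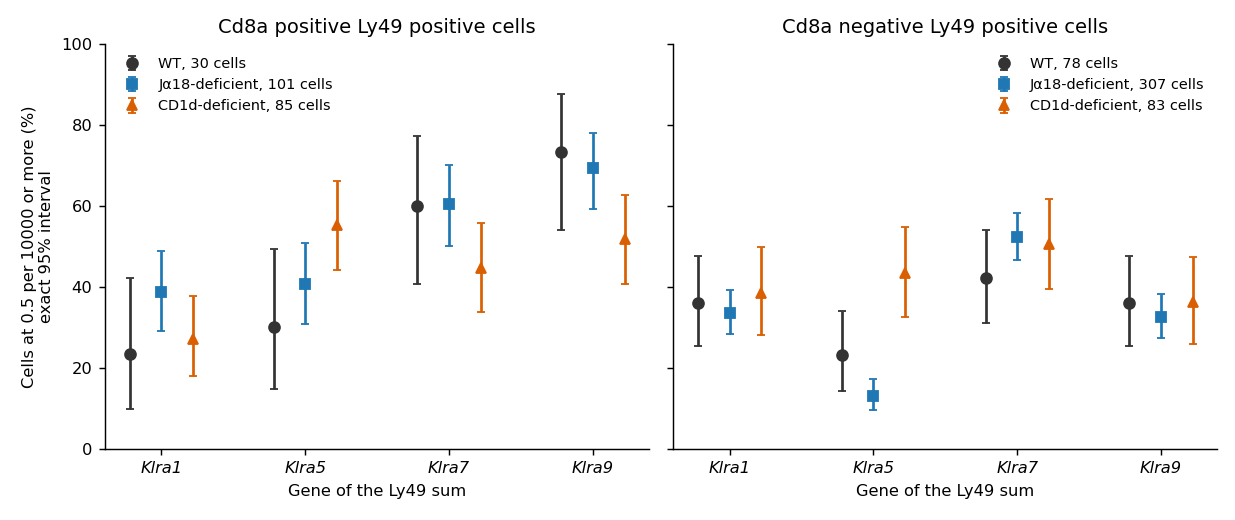
Points give the share of cells, in percent, in which each of 4 Ly49 genes reached 0.5 UMIs per 10000, with exact 95% intervals for counting error, in Cd8a+Ly49+ cells on the left and Ly49+ cells without Cd8a on the right. In Cd8a+Ly49+ cells the Klra9 share was 73.3%, 69.3% and 51.8% in the WT, Jα18-deficient and CD1d-deficient pool.

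Ly49 genes outside the gate did not separate these cells from the others by any of the tools. Of 17 listed, 15 are in the matrix and 5 could be tested, with 0 called against all other cells by edgeR, DESeq2 or limma and 0 at an unadjusted p under 0.05. Klra3 had 0.566, 0.418 and 1.096 UMIs per 10000 in WT, Jα18-deficient and CD1d-deficient Cd8a+Ly49+ cells, with the uncertainty from its overlap with Klra9. Klra8, the activating receptor Ly49H, had 0, 0.0293 and 0.0135, and Klra4 and Klra6 had no UMI in any cell of the 4 subsets.

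The labelled identity held in the transcripts. Cd3d, a chain of the CD3 complex, reached 0.5 per 10000 in 215 of the 216 cells, and Klrb1c, which encodes NK1.1, in 204. Cd3d had 15.9, 16.5 and 15.5 UMIs per 10000 in the pools and Klrb1c between 9.18 and 11.1. Cd4 reached the threshold in 6 cells and Cd8b1, which encodes CD8β, in 15 (6.94%, 3.94 to 11.2%). The WT pool held 4 of these 15, the Jα18-deficient pool 6 and the CD1d-deficient pool 5. Cd1d1, which the CD1d-deficient strain should lack, had 80 UMIs in WT and 88 in Jα18-deficient Cd8a+Ly49+ cells, and 0 in CD1d-deficient ones, for which a limit of 3 UMIs allows a level of up to 0.00672 per 10000.

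Transcripts of other cell types were low, apart from Lyz2. In Cd8a+Ly49+ cells the 9 hepatocyte markers summed to 0.106, 0.214 and 0.267 UMIs per 10000 in the WT, Jα18-deficient and CD1d-deficient pool, with Alb, Fgb and Mup20 at 0. The 6 endothelial markers summed to at most 0.0124 with 5 at 0, the 8 erythroid and platelet markers to at most 0.00224 with 7 at 0, and the 7 B cell markers to between 0.465 and 0.640 with Ms4a1 and Pax5 at 0. The 13 myeloid markers summed to 1.11, 0.446 and 7.04 with Clec4f, Marco, S100a8 and S100a9 at 0, and Lyz2 alone, which encodes lysozyme, had 1.02, 0.168 and 6.73. Lyz2 was as uneven between pools in all other cells, and its part in the differences between pools was not tested. Of all these markers 8 could be tested against the other cells, with 0 called by edgeR or limma and 2 at an unadjusted p under 0.05, while DESeq2 called the B cell gene Cd79b higher. A single cell held 66.7%, 83.7% and 31.9% of the Cd79b UMIs.

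Depth was 1608494 UMIs in the 30 WT, 7508664 in the 101 Jα18-deficient and 4462234 in the 85 CD1d-deficient Cd8a+Ly49+ cells, with medians of 34311, 42551 and 31710 UMIs per cell. All other cells had medians of 51884, 63372 and 43874, so that the chosen cells were shallower in each pool. No doublet caller was run, and no pair of cells had identical counts.

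What set Cd8a+Ly49+ cells apart from all other NK1.1+CD3e+ cells was tested on UMIs summed per pool. Genes of NK cell receptors and adaptors, granzymes and chemokines were higher, and genes of T cell costimulation were lower. From these same cells the paper had already described a cluster high in Cd8a, several Klr genes, Ncr1, Tyrobp, Gzma, Gzmb, Ccl3, Ccl4 and Xcl1. The direction of the receptor, granule and chemokine lists below, which hold such genes, is therefore not independent evidence. Of 9729 genes tested outside the gate, 25 were called higher (0.257%) and 11 lower (0.113%) by edgeR's quasi-likelihood test. By the same test 581 of them were at an unadjusted p under 0.05. A call needed an adjusted p below 0.05 (Benjamini-Hochberg over all genes fitted) and a natural-log fold change beyond 0.25 in size. All 36 had the same sign in each pool, and in 33 of them the 3 pools of Cd8a+Ly49+ cells lay apart from the 3 of other cells. Over all genes tested, those pools lay wholly above in 3.98% and wholly below in 9.6%. The comparison rests on the difference within pools, since without the pool term edgeR called 0 genes, with 579 at an unadjusted p under 0.05. The makeup of the other cells differed between pools, as 409 of 493 WT other cells had neither Cd8a nor Ly49 against 38 of 142 in the CD1d-deficient pool.

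**Figure D3:**
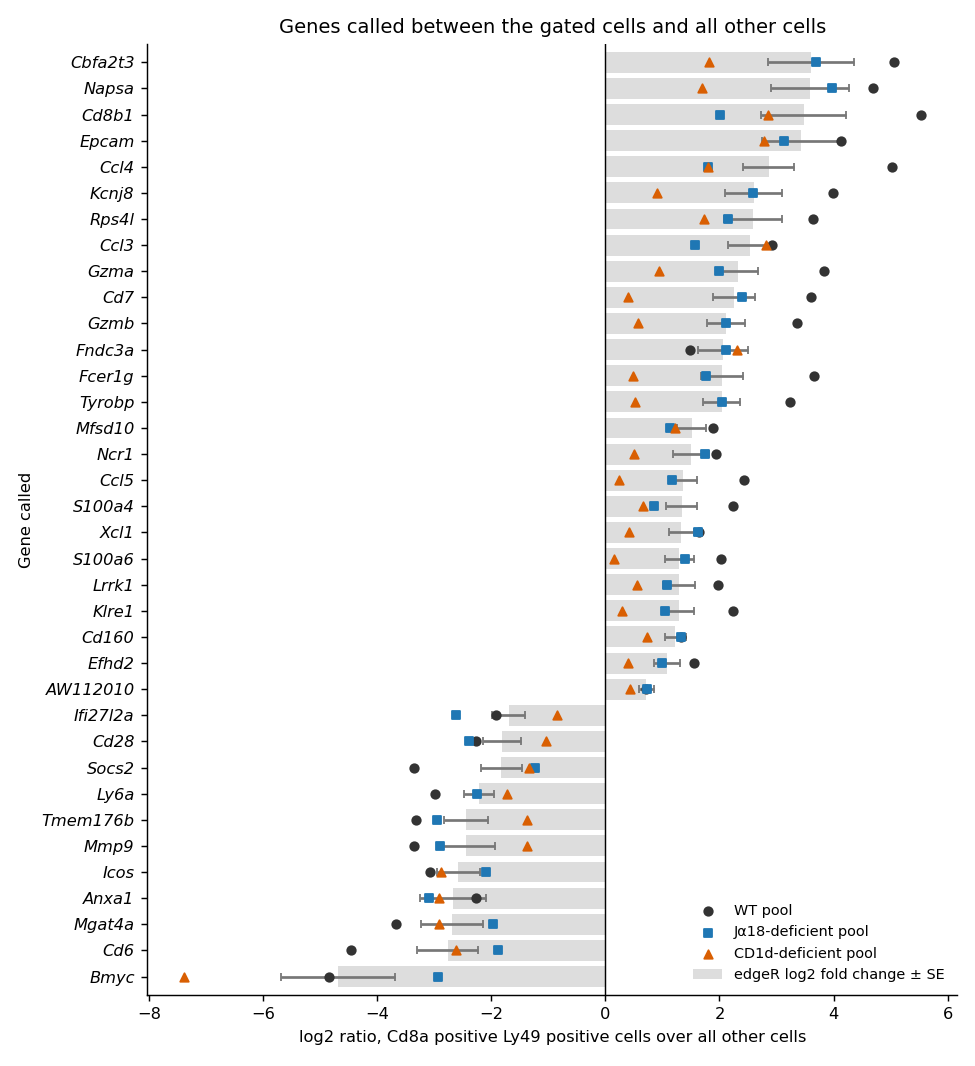
Bars give edgeR's log2 fold change with its SE for the 36 genes called between Cd8a+Ly49+ cells and all other cells, and points the log2 ratio of summed levels within each pool. All 3 points of a gene lie on 1 side of 0, and for Tyrobp, Fcer1g, Cd7 and Ccl5 the CD1d-deficient pool lies nearest to 0.

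The partner chain of CD8α was among the genes called. Cd8b1 had 185, 398 and 240 UMIs in WT, Jα18-deficient and CD1d-deficient Cd8a+Ly49+ cells, or 0.739 ± 0.356 per 10000 (SD, n = 3 pools), against 0.0769 ± 0.0533 in other cells. It was higher by 3.48 ± 0.74 on the log2 scale (SE; adjusted p = 0.039). Its UMIs came from few cells, with 62.2%, 36.9% and 61.3% of them in a single cell of each pool. It lost its call without the WT pool, in thinned cells, at a threshold of 1 and under limma. Against Cd8a+ cells without Ly49, which were few, Cd8b1 was not called by any of the tools, and the pools went apart. In the Jα18-deficient pool those cells had more of it, with 3.79 UMIs per 10000 against 0.530 in Cd8a+Ly49+ cells. In the WT and CD1d-deficient pools they had less, with 0 and 0.0156.

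Among receptors and adaptors of NK cells, 5 genes were higher. Tyrobp, which encodes the adaptor DAP12, had 26.8, 34.8 and 31.9 UMIs per 10000 in Cd8a+Ly49+ cells and 2.84, 8.38 and 22.3 in other cells. The fold change was 2.04 ± 0.32 (log2, SE; adjusted p = 0.0035). Fcer1g, the signalling chain shared by several Fc and NK receptors, had 38.9, 35.7 and 34.2 against 3.08, 10.6 and 24.4. It was higher by 2.04 ± 0.36 (adjusted p = 0.0091). In both genes the Cd8a+Ly49+ cells of every pool lay above the other cells of every pool, and the other cells were lowest in the WT and highest in the CD1d-deficient pool.

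Cd160, a receptor of NK cells and innate-like T cells, had 15.3 ± 2.03 UMIs per 10000 in Cd8a+Ly49+ cells and 7.30 ± 2.78 in other cells (SD, n = 3 pools). It was higher by 1.22 ± 0.18 (adjusted p = 0.0027). Ncr1, which encodes NKp46, had 2.65 ± 1.35 against 1.21 ± 1.002 and was higher on the log2 scale (SE 0.32, adjusted p = 0.041), with overlapping pools. That call ended when the Jα18-deficient pool was left out, in cells of at least 20000 UMIs and at a threshold of 1, and was kept in 7 of 11 alternatives. Klre1, a lectin receptor that pairs with other NK receptors, had 12.2 ± 0.468 against 6.16 ± 3.82 and was higher by 1.28 ± 0.27 (adjusted p = 0.035).

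In the list of 18 activating receptors and adaptors, 17 genes were tested and 4 were called higher, with a median log2 fold change of 0.52, beside -0.11 over all genes tested. In the list of 13 lectin receptors, edgeR called only Klre1, while DESeq2 also called Klrb1a, Klrd1 and Klri2 and limma 0, with 12 of 13 fold changes above 0 and a median of 0.46. Klrd1, which encodes CD94, had 21.3, 16.2 and 18.0 UMIs per 10000 in Cd8a+Ly49+ cells. Klrk1, which encodes NKG2D, had 6.92, 4.53 and 9.46 and was not called.

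Of the granule genes, edgeR called Gzma and Gzmb. Gzma, granzyme A, had 50.5, 37.6 and 49.1 UMIs per 10000 in WT, Jα18-deficient and CD1d-deficient Cd8a+Ly49+ cells, against 3.55, 9.47 and 25.5 in other cells. It was higher by 2.33 ± 0.34 (log2, SE; adjusted p = 0.0027). Single cells ranged from 0 to 211, 238 and 367, with medians of 23.7, 4.13 and 12.02, so that the median cell lay below the level of the sum in each pool.

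Gzmb, granzyme B, had 51.3, 28.8 and 35.5 against 4.98, 6.68 and 24.0 and was higher by 2.12 ± 0.33 (adjusted p = 0.0031). For both granzymes the 3 pools of Cd8a+Ly49+ cells lay above the 3 of other cells. Under DESeq2 neither granzyme was called against all other cells, with adjusted p of 0.18 and 0.32. Among 20 granule genes, 19 were tested, edgeR called these 2 higher, limma the same 2 and DESeq2 0, and 17 fold changes were above 0, with a median of 0.46. Prf1, perforin, had 0.696, 0.844 and 1.47 UMIs per 10000 and was not called by any of the tools.

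All of Ccl3, Ccl4, Ccl5 and Xcl1, chemokines that draw in other leukocytes and dendritic cells, were higher. Ccl4 had 11.3, 4.40 and 8.89 UMIs per 10000 in Cd8a+Ly49+ cells against 0.348, 1.27 and 2.56 in other cells, a fold change of 2.86 ± 0.45 (log2, SE; adjusted p = 0.0035). DESeq2 gave it an adjusted p of 0.099. Ccl3 had 1.38, 1.46 and 3.03 against 0.183, 0.492 and 0.431 and was higher by 2.53 ± 0.38 (adjusted p = 0.0028). The median cell had no Ccl3 UMI in any pool, and a single cell held 62.2%, 22.7% and 51.7% of its UMIs.

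Xcl1, lymphotactin, had 18.3 ± 3.11 against 8.10 ± 3.01 UMIs per 10000 (SD, n = 3 pools) and was higher by 1.33 ± 0.22 (adjusted p = 0.0043). Ccl5 had 206, 189 and 215 against 38.4, 84.4 and 183 and was higher by 1.37 ± 0.24 (adjusted p = 0.0091). In the CD1d-deficient pool that difference was small, with a log2 ratio of 0.23. Of 16 chemokines and cytokines, 13 were tested and edgeR called 4, all higher. Ifng, interferon-γ, had 1.29, 1.83 and 1.04 UMIs per 10000 and was not called, and Il4, called lower by DESeq2 alone, had 0.224, 0.349 and 0.0762. Il17a and Il10 had no UMI in the 216 cells.

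Other genes called higher had varied roles. Cd7, a surface glycoprotein of T and NK cells, had 57.8, 65.9 and 47.1 UMIs per 10000 against 4.74, 12.6 and 35.7 and was higher by 2.26 ± 0.37 (adjusted p = 0.0043). The calcium-binding proteins S100a4 and S100a6 were higher by 1.34 ± 0.27 and 1.30 ± 0.25. Epcam, an adhesion molecule best known from epithelium, had 0.659, 0.481 and 0.657 against 0.0378, 0.0548 and 0.0960 (adjusted p = 0.023). Kcnj8, a potassium channel subunit, had 2.38, 1.67 and 1.19 against 0.149, 0.278 and 0.636 (adjusted p = 0.019).

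The largest fold changes among genes called higher were those of Cbfa2t3, a transcriptional corepressor, at 3.60 ± 0.75, and Napsa, an aspartic protease, at 3.59 ± 0.68. Both were low, with Cbfa2t3 at 0.354, 0.694 and 0.874 and Napsa at 0.709, 1.27 and 0.578 UMIs per 10000. Without the Jα18-deficient pool neither they nor Epcam were called. Rps4l, at 2.59 ± 0.50, is a ribosomal protein gene with a near copy elsewhere in the genome and is uncertain. The median Cd8a+Ly49+ cell had no UMI of Cbfa2t3, Napsa, Epcam, Kcnj8 or Rps4l in any pool. Fndc3a, Mfsd10, Lrrk1, Efhd2 and AW112010 completed the genes called higher, with fold changes between 0.72 and 2.07. They and both S100 genes lay outside the rule for named genes and were named after their values were seen.

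Genes lower in Cd8a+Ly49+ cells included those of T cell costimulation. Icos, the inducible costimulator, had 0.292, 0.392 and 0.206 UMIs per 10000 in WT, Jα18-deficient and CD1d-deficient Cd8a+Ly49+ cells against 2.46, 1.66 and 1.52 in other cells. It was lower, at -2.57 ± 0.38 (log2, SE; adjusted p = 0.0027). Cd28, the main costimulatory receptor of T cells, had 0.771, 0.479 and 0.594 against 3.70, 2.51 and 1.23, at -1.80 ± 0.33 (adjusted p = 0.013). Cd6, a scavenger-type receptor that tunes T cell receptor signals, had 0.0560, 0.476 and 0.103 against 1.22, 1.74 and 0.628, at -2.77 ± 0.53 (adjusted p = 0.018).

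The CD3 chains were not among the genes called. In the list of 20 genes of that complex and its signalling, edgeR called Cd8b1 higher, Cd6, Cd28 and Icos lower and the other 16 neither way. DESeq2 also called Cd4, Cd5 and Cd40lg lower, and limma Cd5 and Cd40lg. Cd3g had 16.6, 17.6 and 15.4 UMIs per 10000 in Cd8a+Ly49+ cells, and Lck, the kinase bound by CD8 and CD4, had 8.38, 10.7 and 13.4. The median log2 fold change of the list was -0.29, and 10 of the 20 genes were at an unadjusted p under 0.05 by edgeR.

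Ly6a, which encodes Sca-1, had 1.21, 1.24 and 0.475 UMIs per 10000 against 9.63, 5.88 and 1.57. It was lower, at -2.22 ± 0.26, with the smallest adjusted p among the 36 genes, 0.00053. Tmem176b, a membrane protein of intracellular compartments, had 0.211, 0.418 and 0.632 against 2.10, 3.25 and 1.64, at -2.44 ± 0.39 (adjusted p = 0.0035). Socs2, a suppressor of cytokine signalling, had 0.342, 1.43 and 1.17 against 3.48, 3.35 and 2.95, at -1.82 ± 0.35 (adjusted p = 0.019). Bmyc, a relative of Myc, had the most negative fold change, -4.69 ± 0.997, but only 2, 35 and 2 UMIs in the chosen cells. Mgat4a, Anxa1 and Mmp9 were also called lower, and kept that call in 6, 6 and 8 of 11 alternatives. Ifi27l2a, outside the rule for named genes, was called lower too.

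A list of 8 genes of CD1d-dependent NKT cells overlaps with these genes and was in part drawn from genes the study picked on the same cells, so that its direction is not independent evidence. Its sum was 3.19, 2.81 and 2.15 UMIs per 10000 in Cd8a+Ly49+ cells and 23.7, 17.2 and 12.8 in cells with neither gate. All 8 fold changes were below 0, and edgeR called Icos, Ly6a and Cd28. DESeq2 added Cd4, Cd40lg and Il4, and limma Cd40lg. Zbtb16, which encodes PLZF, the factor that directs NKT cell development, had 0.0870, 0.0120 and 0.370 UMIs per 10000 and was not called.

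Lineage factors, homing genes and cytokine receptors were mostly not called. Of 24 transcription factors tested edgeR called 0, limma called 0 and DESeq2 called Runx3 and Tox higher. By edgeR 8 of the 24 were at an unadjusted p under 0.05, a larger share than the 581 of 9729 over all genes tested. Tbx21, which encodes T-bet, had 1.36, 2.56 and 1.93 UMIs per 10000, while Eomes, its relative in conventional NK cells, had 0, 0.0187 and 0.00224. Runx3, a factor of CD8 and cytotoxic lineages, had 1.75, 2.22 and 2.65.

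Of 24 homing and adhesion genes tested, edgeR called Ly6a alone, with 7 at an unadjusted p under 0.05. DESeq2 and limma also called Ccr2 and Itgax, and DESeq2 called Itga1. With Ly6a included, DESeq2 called 2 higher and 2 lower, and limma 1 higher and 2 lower. Cxcr6, a receptor that holds lymphocytes in liver sinusoids, had 13.3, 8.32 and 14.1 UMIs per 10000. Its levels were 10.9, 10.9 and 10.1 in Ly49+ cells without Cd8a and 15.8, 15.9 and 10.5 in Cd8a+ cells without Ly49. Itga1, the CD49a chain of liver-resident NK cells, had 0.808, 1.61 and 2.32 in Cd8a+Ly49+ cells. S1pr1, which lymphocytes use to leave tissue, had 0, 0.0533 and 0.141 in the same cells.

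Of 16 cytokine receptors 0 was called by edgeR or limma, with 4 at an unadjusted p under 0.05, and DESeq2 called Il2ra and Il7r lower. Il2rb, the chain shared by the receptors for interleukin-2 and interleukin-15, had 6.37, 8.83 and 7.90 UMIs per 10000. Inhibitory receptors, class I genes and cell cycle genes had 0 calls by edgeR and limma, and DESeq2 called Lag3 higher. By edgeR 4 of 9, 2 of 9 and 2 of 14 genes tested in these lists were at an unadjusted p under 0.05. Cell cycle genes summed to 10.2, 10.5 and 13.1 UMIs per 10000.

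The same test was run against Ly49+ cells without Cd8a. Of 8934 genes tested outside the gate, edgeR called 3 higher in Cd8a+Ly49+ cells (0.0336%) and 0 lower, with 394 at an unadjusted p under 0.05 in either direction, while DESeq2 called 28 higher and 13 lower and limma 9 and 2. Ccl4 had 11.3, 4.40 and 8.89 UMIs per 10000 against 2.12, 2.20 and 1.48 in the Ly49+ cells without Cd8a, and was higher by 2.07 ± 0.28 (log2, SE; adjusted p = 0.0026). That call was kept in all 11 alternatives, with fold changes from 1.81 to 2.55.

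Both granzymes were higher as well. Gzmb had 51.3, 28.8 and 35.5 against 16.9, 8.17 and 25.3 and was higher by 1.37 ± 0.20 (adjusted p = 0.0046). Gzma had 50.5, 37.6 and 49.1 against 23.3, 15.6 and 34.8 and was higher by 1.03 ± 0.15 (adjusted p = 0.0046). For each of the 3 genes the pools of Cd8a+Ly49+ cells lay above those of the other subset, as they did for 3.72% of all genes tested, with 6.3% wholly below. The calls of Gzma and Gzmb were lost when the pool term or the Jα18-deficient pool was left out. Gates on both sides used Ly49, and 315 of the 468 Ly49+ cells counted as without Cd8a had no Cd8a UMI at all.

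Tyrobp and Fcer1g were not called by edgeR against these cells. Tyrobp had 26.8, 34.8 and 31.9 against 18.8, 12.9 and 24.95 UMIs per 10000 and Fcer1g 38.9, 35.7 and 34.2 against 17.2, 16.2 and 31.1, with log2 fold changes of 0.83 ± 0.18 and 0.89 ± 0.18 (edgeR adjusted p = 0.18 and 0.13). DESeq2 called neither, and limma called both higher. Cd8b1 had 0, 0.0853 and 0.133 UMIs per 10000 in Ly49+ cells without Cd8a and was not called.

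**Figure D4:**
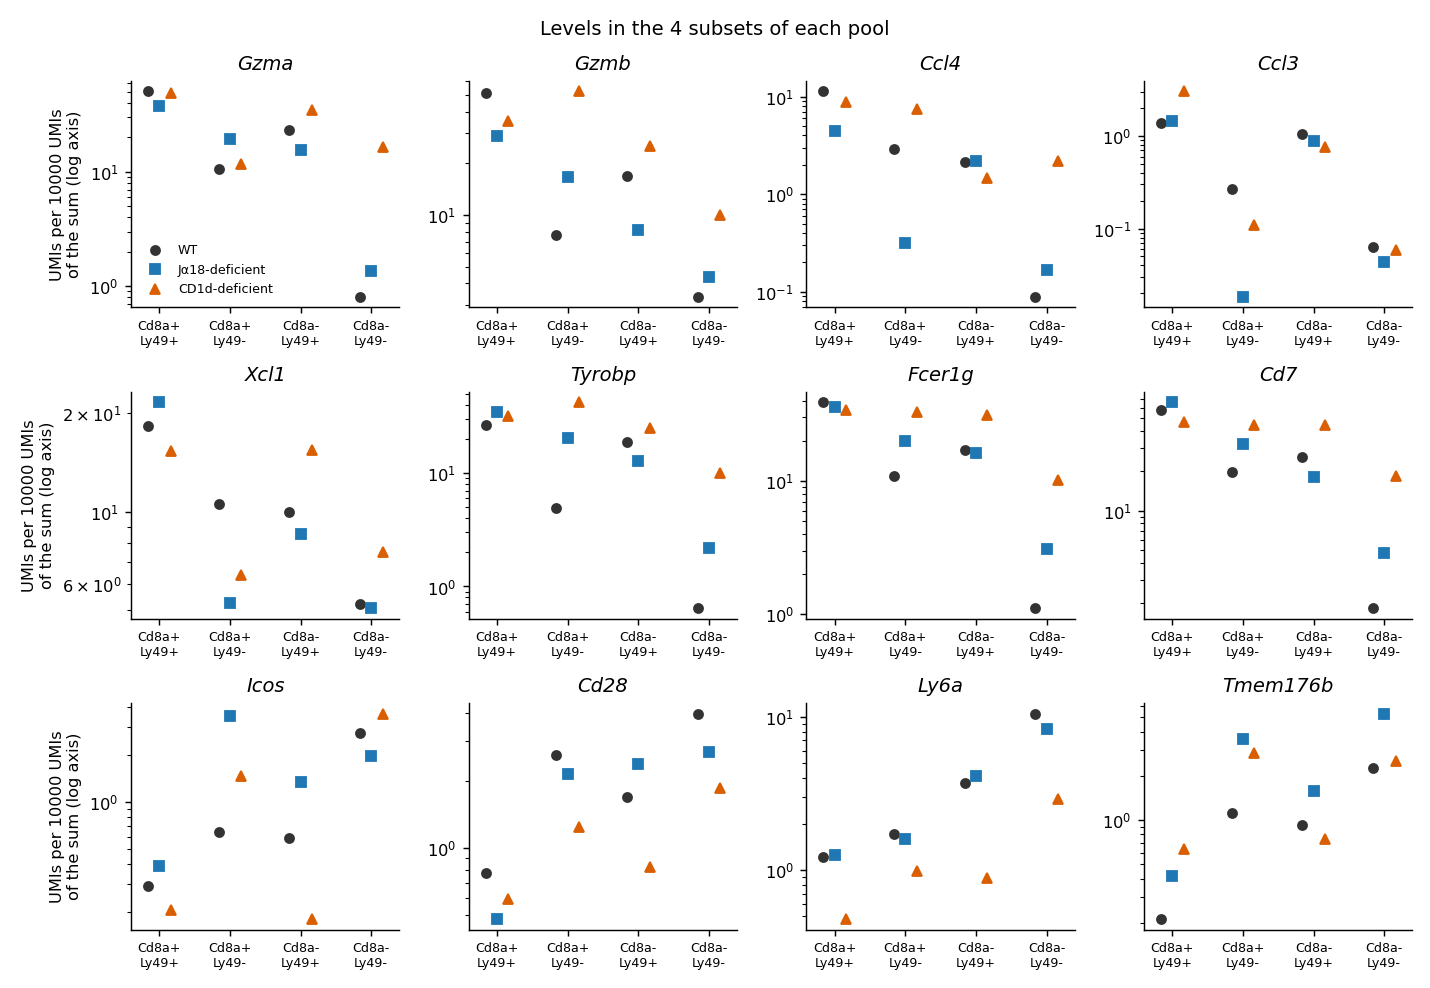
Points give UMIs per 10000 UMIs of the summed cells, on a log axis, for 12 genes in the 4 subsets of each pool, with 1 symbol per pool. Gzma had 50.5, 37.6 and 49.1 in Cd8a+Ly49+ cells of the WT, Jα18-deficient and CD1d-deficient pool and 0.801, 1.36 and 16.5 in cells with neither, and Ly6a had 1.21, 1.24 and 0.475 against 10.5, 8.28 and 2.90.

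Cd8a+ cells without Ly49 were few, with 6, 11 and 21 cells in the pools, so that each gene rests on a small sum. Of 6620 genes tested, edgeR called 1 higher in Cd8a+Ly49+ cells (0.0151%) and 2 lower (0.0302%), DESeq2 14 and 12, and limma 14 and 2, among them Ccl3, Ccl4, Ccl5, Xcl1, Tyrobp, Fcer1g and Ncr1. The median log2 fold change of all genes was 0.40. Gzma had 50.5, 37.6 and 49.1 UMIs per 10000 against 10.6, 19.2 and 11.7 and was higher by 1.54 ± 0.26 (log2, SE; adjusted p = 8.4e-06). Kdm5b, a histone demethylase, had 0.0560, 0.153 and 0.439 against 1.49, 2.15 and 3.71, at -4.07 ± 0.94 (adjusted p = 0.018). Zmat1, a zinc finger protein, had 0.379, 0.117 and 0.00896 against 1.33, 2.55 and 2.55, at -4.85 ± 1.20 (adjusted p = 0.049).

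Pools of the subsets did not overlap for these genes, as was so for 14.4% of all genes tested above and 2.33% below. Gzma lost its call without the CD1d-deficient pool, without the pool term and under DESeq2. Kdm5b was called in 1 of 11 alternatives and Zmat1 in 2 of 10. Gzmb had 51.3, 28.8 and 35.5 against 7.62, 16.6 and 52.6 and was not called by edgeR or DESeq2, while limma called it higher. In the CD1d-deficient pool its level was lower in Cd8a+Ly49+ cells. In the plot of 12 genes over the 4 subsets, Tyrobp showed the same order within the CD1d-deficient pool, with 31.9 in Cd8a+Ly49+ cells and 41.9 in Cd8a+ cells without Ly49.

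Cells with Cd8b1 at the threshold were compared with the rest of the Cd8a+Ly49+ cells, a split by transcript counts and not by CD8β protein. The 4, 6 and 5 cells with Cd8b1 at 0.5 per 10000 or more had Cd8b1 medians between 3.99 and 4.995, while 0, 17 and 3 Cd8b1 UMIs were found in the 26, 95 and 80 cells below it. Of 5731 genes tested, edgeR called 3 higher in cells with Cd8b1 (0.0523%) and 2 lower (0.0349%), limma 2 higher and 135 lower, and the median log2 fold change over all genes was -0.80. DESeq2 called 4 higher and 2 lower, with 0 of edgeR's 5 among them. The pools lay wholly above in 2.5% and wholly below in 16.8% of all genes tested.

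Ly6c2, which encodes the memory T cell marker Ly6C, had 23.3, 18.9 and 16.9 UMIs per 10000 in WT, Jα18-deficient and CD1d-deficient cells with Cd8b1 against 4.57, 4.10 and 10.4 in cells without. It was higher by 1.88 ± 0.39 (log2, SE; adjusted p = 0.0026), although a single cell held 50.3%, 58.6% and 59.9% of these UMIs. Fcer1g had 22.1, 15.0 and 9.03 against 41.8, 37.6 and 35.9 and was lower, at -1.29 ± 0.31 (adjusted p = 0.033). Rn45s and Rpl17, a ribosomal RNA precursor and a ribosomal protein gene, were called higher by 0.92 ± 0.17 and 1.17 ± 0.25, and both have near copies in the genome that make their counts uncertain. Without the CD1d-deficient pool Ly6c2 alone kept its call, and without the Jα18-deficient pool Ly6c2 and Rpl17 lost theirs.

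Gzma was called lower in cells with Cd8b1, at -1.68 ± 0.34 (adjusted p = 0.0021), but the pools went apart. It had 9.12 against 57.7 UMIs per 10000 in WT and 5.42 against 52.0 in CD1d-deficient cells, but 86.5 against 33.1 in Jα18-deficient ones. Among the latter, 1 of the 6 cells held 96.8% of the 5521 Gzma UMIs, with a value of 215, and the next highest cell had 19.6. Medians over cells were 1.43 against 30.5, 2.90 against 4.14 and 2.09 against 12.9. The call was lost without the WT or the CD1d-deficient pool.

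Between genotypes the Cd8a+Ly49+ cells were set side by side on sums of UMIs with exact Poisson 95% intervals, which cover counting error only. Mtmr9, a phosphatase-like protein, had 1, 1199 and 4 UMIs in WT, Jα18-deficient and CD1d-deficient cells, or 0.00622 (0.000157 to 0.0346), 1.60 (1.51 to 1.69) and 0.00896 (0.00244 to 0.0230) per 10000. Its level in other cells was 0.0284, 1.23 and 0.0306, so that it marked the Jα18-deficient pool in both.

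Lgals3, which encodes galectin-3, had 20 UMIs in WT and 6179 in Jα18-deficient Cd8a+Ly49+ cells, or 0.124 (0.0760 to 0.192) and 8.23 (8.03 to 8.44) per 10000, a log2 ratio of 6.05. In other cells the levels were 0.435 and 2.001, a log2 ratio of 2.20. Lyz2 had 0.168 (0.140 to 0.200) in Jα18-deficient and 6.73 (6.49 to 6.97) in CD1d-deficient cells, a log2 ratio of 5.32, and other cells had 0.138 and 5.65, a log2 ratio of 5.36. For Lyz2 the ratio was thus alike in the other cells, and pool and genotype cannot be told apart.

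The remaining genes of the same rule were Taf3, Tsen34 and Ten1 between WT and Jα18-deficient cells, Jmjd6, Stk39, Mad2l2, Terf1 and 2310039H08Rik between WT and CD1d-deficient cells, and Ntmt1, Exosc6 and Rnpepl1 between Jα18-deficient and CD1d-deficient cells. Each had 0 to 4 UMIs in the lower pool and between 250 and 1020 in the higher one, of which a single cell held 18.6 to 68.1%. In other cells their log2 ratios, later-named pool over earlier, ran from -1.98 to 0.85. Tsen34, Stk39, Mad2l2 and 2310039H08Rik, between -1.01 and -0.32, had the sign opposite to that in Cd8a+Ly49+ cells. The rest had the same sign, among them Ntmt1 at -1.98, beside -6.26 in Cd8a+Ly49+ cells, and Jmjd6 at 0.85, beside 6.36.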

How the data were processed

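Single NK1.1+CD3e+ liver cells of 3 genotypes were sequenced in 24 libraries, and the deposited matrix holds UMI counts of 24447 genes in 1735 cells. The authors trimmed reads with Cutadapt 1.15, aligned them with TopHat 2.0.12 to mm9 and counted deduplicated UMIs per gene with HTSeq 0.10.0. Cells were kept at 10000 UMIs or more. Members and gene lists were chosen with earlier results of these data known. UMIs were summed per pool and subset and tested with edgeR 4.0.16 (TMM, filterByExpr, pool as a term), with DESeq2 1.42.0 and limma 3.58.1 (log2 of the mean per-cell value plus 0.1) as alternatives, in R 4.3.3. The genes named were the 10 called with the largest fold change in each direction, those of the fixed lists and, between genotypes, for each pair of pools, the 5 with the largest ratio, provided that both pools together held 100 UMIs or more and that 20% or more of the members of either pool had one. The edgeR step was also run on simulated sums with known changes. Those sums held no difference between pools, so they do not show how the step handles one. Other steps used Python 3.11.15, numpy 2.4.6, scipy 1.17.1 and matplotlib 3.10.9. One item of the fixed lists, and the list result that needs it, is not reported here.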

Additional observations from a re-analysis of the deposited data

Results flagged for a closer look

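Gzma in Cd8a+Ly49+ cells with Cd8b1, against those without, went opposite ways in the pools, with log2 ratios of -2.66 in the WT, 1.39 in the Jα18-deficient and -3.26 in the CD1d-deficient pool. That difference between pools was not tested.

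Cells under 10000 UMIs, which no comparison above used, also met the gate. The study's methods state a lower limit of that size for the cells kept, yet 353 cells of the matrix lie under it. In each pool the matrix holds as many cells as the paper reports after quality control. The matrix therefore appears to follow that step, and why it still holds these cells is not given in the sources used here. In the WT pool 3 of 100 cells under the limit met the gate (3.0%, exact 95% interval 0.623 to 8.52%). The Jα18-deficient pool had 24 of 93 (25.8%, 17.3 to 35.9%), and the CD1d-deficient pool 67 of 160 (41.9%, 34.1 to 49.9%).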

How the results depend on the processing

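Against all other cells the 36 calls became 134 with DESeq2, 78 without the filter on low counts, 0 without the pool term, 77 with each gene's highest cell left out (an alternative chosen after seeing the data) and 33 to 87 with 1 pool left out, the most without the CD1d-deficient pool. Of the 36, DESeq2 kept 32 and limma 30, and no call changed direction. Against Cd8a+ cells without Ly49 the 3 calls became 26 with DESeq2, 16 with limma, 1 without the filter, 0 without the pool term, 1 in cells of at least 20000 UMIs, 1 at a threshold of 1 and 0 to 7 with 1 pool left out. Against Ly49+ cells without Cd8a the 3 calls became 41 with DESeq2, 11 with limma, 23 without the filter, 1 without the pool term, 8 in cells of at least 20000 UMIs, 22 in thinned cells, 9 without each gene's highest cell and 1 to 13 with 1 pool left out. Between cells with and without Cd8b1 the 5 calls became 137 with limma, 0 without the pool term, 3 at a threshold of 1, 11 without each gene's highest cell and 1 to 10 with 1 pool left out. The causes were not tested. At a threshold of 1 the share of Cd8a+Ly49+ cells was 12.5% in the Jα18-deficient and 30.4% in the CD1d-deficient pool. No paired analysis was possible because the names of cells carry no replicate number that would match libraries across genotypes, while subsets were compared within pools. Sums of 4 to 6 cells, as for Cd8b1, and of 6 to 21 cells, as for Cd8a without Ly49, limit what those comparisons could detect.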
